A study of Mus musculus with 36 samples.

Results

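The 29 genes described here encode the enzymes and regulators of cholesterol and fatty acid synthesis. They were taken by symbol from a list of the pathway's genes, by a rule that holds no measured value, although the list was drawn up with earlier results of these data known, and all 29 were found among the 52636 genes of the count tables. Following the pathway, 7 act from acetyl-CoA to farnesyl pyrophosphate (the mevalonate branch), 11 from squalene to cholesterol, 4 in regulation and sterol transfer, and 7 in fatty acid synthesis. All 29 held enough counts to be tested, among 15497 genes tested in all.

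RNA was sequenced from organoids grown from jejunum crypts of C57BL/6 mice, in 36 libraries that form 6 groups of 6. In Complete media + IgG the organoids grew in IntestiCult with a control antibody. In QCM + IgG and SCM + IgG the medium came from mouse embryonic fibroblasts made quiescent by serum withdrawal or made senescent, and SCM + anti-Ptk7 combined the senescent medium with an antibody against Ptk7, a Wnt co-receptor whose shed extracellular part was the study's candidate factor. In Wnt5a + IgG and Wnt5a + anti-Ptk7, recombinant Wnt5a, a noncanonical Wnt ligand, was added to complete media. All cultures received either IgG or anti-Ptk7 and were collected after 2 days, and the fibroblasts of the conditioned media were embryonic and not intestinal. No library of complete media or of QCM with anti-Ptk7 was analysed here, so an effect of the antibody alone cannot be told apart from its effect in SCM or Wnt5a. In these bulk samples, fewer cells of a type and less RNA per cell cannot be told apart.

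Cholesterol is built from acetyl-CoA through mevalonate, squalene and lanosterol, and fatty acids are built from the same acetyl-CoA through malonyl-CoA with NADPH as the reductant. The SREBP transcription factors, encoded by Srebf1 and Srebf2, drive most of these genes when membrane sterol is low, and Insig1 holds their precursors in the endoplasmic reticulum when sterol is plentiful. In the intestine the pathway supplies membranes to the dividing crypt and lipids to the absorptive cells.

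Libraries held between 9581589 and 21029769 counts, and the 29 genes took between 0.800% and 1.13% of them. SCM + IgG replicate 1 stood apart from the others of its group, with a median correlation of 0.949 with them against 0.964 to 0.972 for the other 5. Replicate 1 was also lowest in Wnt5a + IgG (0.954 against 0.960 to 0.973) and in Wnt5a + anti-Ptk7 (0.958 against 0.974 to 0.978). In SCM + anti-Ptk7, replicate 4 was lowest, at 0.947 against 0.951 to 0.960. The summed level of the 6 epithelial markers lay between 8058 and 31794 CPM, the counts scaled to a common library size after TMM, a method that equalizes libraries on the bulk of their genes. The 7 fibroblast markers summed to at most 7.36 CPM, and Col3a1 and Dcn were at 0 in all 36 libraries. The 4 blood cell markers summed to between 9.56 and 18.1 CPM, mostly Csf1r.

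Promoter sequences from RefSeq (GRCm38.p6) were matched by symbol for 23 of the 29 genes, 250 bases before to 50 after the start. They were searched on both strands for 3 motifs of SREBP-driven promoters, namely the sterol regulatory element TCACNCCAC, the NF-Y box ATTGG and the Sp1 box GGGCGG. The sterol regulatory element occurred in 1 of the 23 promoters, that of Hmgcs1, against 1.22% of all 27025 promoters. The NF-Y box occurred in 18 of 23 (78.3%) against 37.9% of all promoters, and the Sp1 box in 18 of 23 (78.3%) against 35.9% of all promoters and 63.5% of the promoters of tested genes. The bases before the start are printed for Hmgcs1, which held all 3 motifs, and for Me1, Insig1 and Dhcr7, whose transcripts differed between groups. They are written 5′ to 3′ on the strand of the gene, with the motifs in capitals on either strand, and bases inside a longer annotated transcript were left out.
Hmgcs1, chr13:119690101-119690350, plus strand: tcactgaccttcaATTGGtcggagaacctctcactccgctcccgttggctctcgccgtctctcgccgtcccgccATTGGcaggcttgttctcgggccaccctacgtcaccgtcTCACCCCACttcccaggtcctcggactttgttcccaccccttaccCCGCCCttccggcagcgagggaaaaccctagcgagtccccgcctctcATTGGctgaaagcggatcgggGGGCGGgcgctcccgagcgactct
Me1, chr9:86695954-86696164, minus strand: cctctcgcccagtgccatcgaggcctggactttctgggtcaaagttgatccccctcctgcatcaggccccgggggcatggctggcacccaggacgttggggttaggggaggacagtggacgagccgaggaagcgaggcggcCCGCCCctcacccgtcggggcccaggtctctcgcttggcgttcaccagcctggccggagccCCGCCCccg
Insig1, chr5:28071162-28071362, plus strand: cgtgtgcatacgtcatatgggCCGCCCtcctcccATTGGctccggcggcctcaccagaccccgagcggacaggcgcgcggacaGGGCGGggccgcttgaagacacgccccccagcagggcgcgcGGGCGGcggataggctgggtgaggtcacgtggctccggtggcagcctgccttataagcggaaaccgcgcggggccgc
Dhcr7, chr7:143822917-143823144, plus strand: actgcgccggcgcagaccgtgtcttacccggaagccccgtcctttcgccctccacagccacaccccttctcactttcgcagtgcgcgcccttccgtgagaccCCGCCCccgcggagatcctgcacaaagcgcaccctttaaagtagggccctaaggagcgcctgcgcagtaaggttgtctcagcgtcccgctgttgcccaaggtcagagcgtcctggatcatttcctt

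In Hmgcs1 the sterol regulatory element lay 137 to 129 bases before the start, between NF-Y boxes at 176 to 172 and 45 to 41 bases. The 228 bases of Dhcr7 held a single Sp1 box, 148 to 143 bases before the start. These letters describe the windows only.

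Per coding length, Scd2, a stearoyl-CoA desaturase, was the most abundant of the genes, at 2842 CPM per kb of coding sequence on average over the 36 libraries. Scd1, its close relative, followed at 550.3 CPM per kb, then Msmo1, a sterol methyl oxidase, at 542 CPM per kb. Cyp51, the lanosterol demethylase, had 415 CPM per kb and Hmgcs1, the cytosolic HMG-CoA synthase, had 372 CPM per kb. The lowest were Acaca, the acetyl-CoA carboxylase that makes malonyl-CoA, at 1.93 CPM per kb, and Idi1, the isopentenyl pyrophosphate isomerase, at 6.88 CPM per kb. Both of these genes have near-identical copies. Idi1 held 3081 counts over all libraries and its 3 copies held 5104, while Acaca held 6763 counts and its copy Gm5182 held 2901. How the counting treated reads that match both a gene and its copy is not given in the sources used here.

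Against complete media, 1 of the 29 genes, Me1, had an estimated change over 1.5-fold together with a passing test, in SCM and in Wnt5a. Calls required a fold change above 1.5 together with a Benjamini-Hochberg adjusted p below 0.05 in edgeR's quasi-likelihood test. In QCM, 0 of the 29 genes were called, against 0.374% of all genes tested. In SCM, 1 of 29 was called, against 6.08% of all genes. In Wnt5a, 1 of 29 was called, against 10.2% of all genes. Over the 29 genes the middle log2 fold change was -0.03 in QCM, -0.07 in SCM and 0.00 in Wnt5a, beside 0.02, 0.01 and 0.01 over all genes.

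Smaller differences were more common, and a gene is said below to pass where its adjusted p was below 0.05 at any fold change. A test of any difference among the 6 conditions passed an adjusted p of 0.05 for 19 of the 29 genes, against 39.5% of all genes. In SCM, 2 of the 29 genes were higher at that threshold whatever their fold change, against 7.43% of all genes, and 2 were lower, against 4.45%. In Wnt5a, 3 of 29 were higher, against 12.5% of all genes, and 5 were lower, against 9.4%. In QCM the count was 0, against 0.658% of all genes, with 5 of the genes at an unadjusted p under 0.05, against 12% of all genes. DESeq2 passed 2 genes there, against 1.99% of the genes to which it gave an adjusted p, while voom with limma passed 0. With a term for replicate number added to edgeR's model, called the replicate block below, 2 genes passed in QCM, 8 in SCM and 10 in Wnt5a. Over all genes, 2.78%, 16.4% and 25.3% passed under the block. Leaving out a library gave 0 to 2 genes passing in QCM, 2 to 6 in SCM and 5 to 9 in Wnt5a. The 2 in SCM came without SCM + IgG replicate 1, and the 5 in Wnt5a without Complete media + IgG replicate 5 or Wnt5a + IgG replicate 1 or 5. In Wnt5a the higher genes were Hsd17b7, Sc5d and Me1, and the lower ones Mvk, Lss, Tm7sf2, Dhcr7 and Insig1. In SCM they were Sc5d and Me1, and Lss and Dhcr7. Genes that passed without reaching the 1.5-fold limit were chosen for description after their values were seen.

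**Figure D1:**
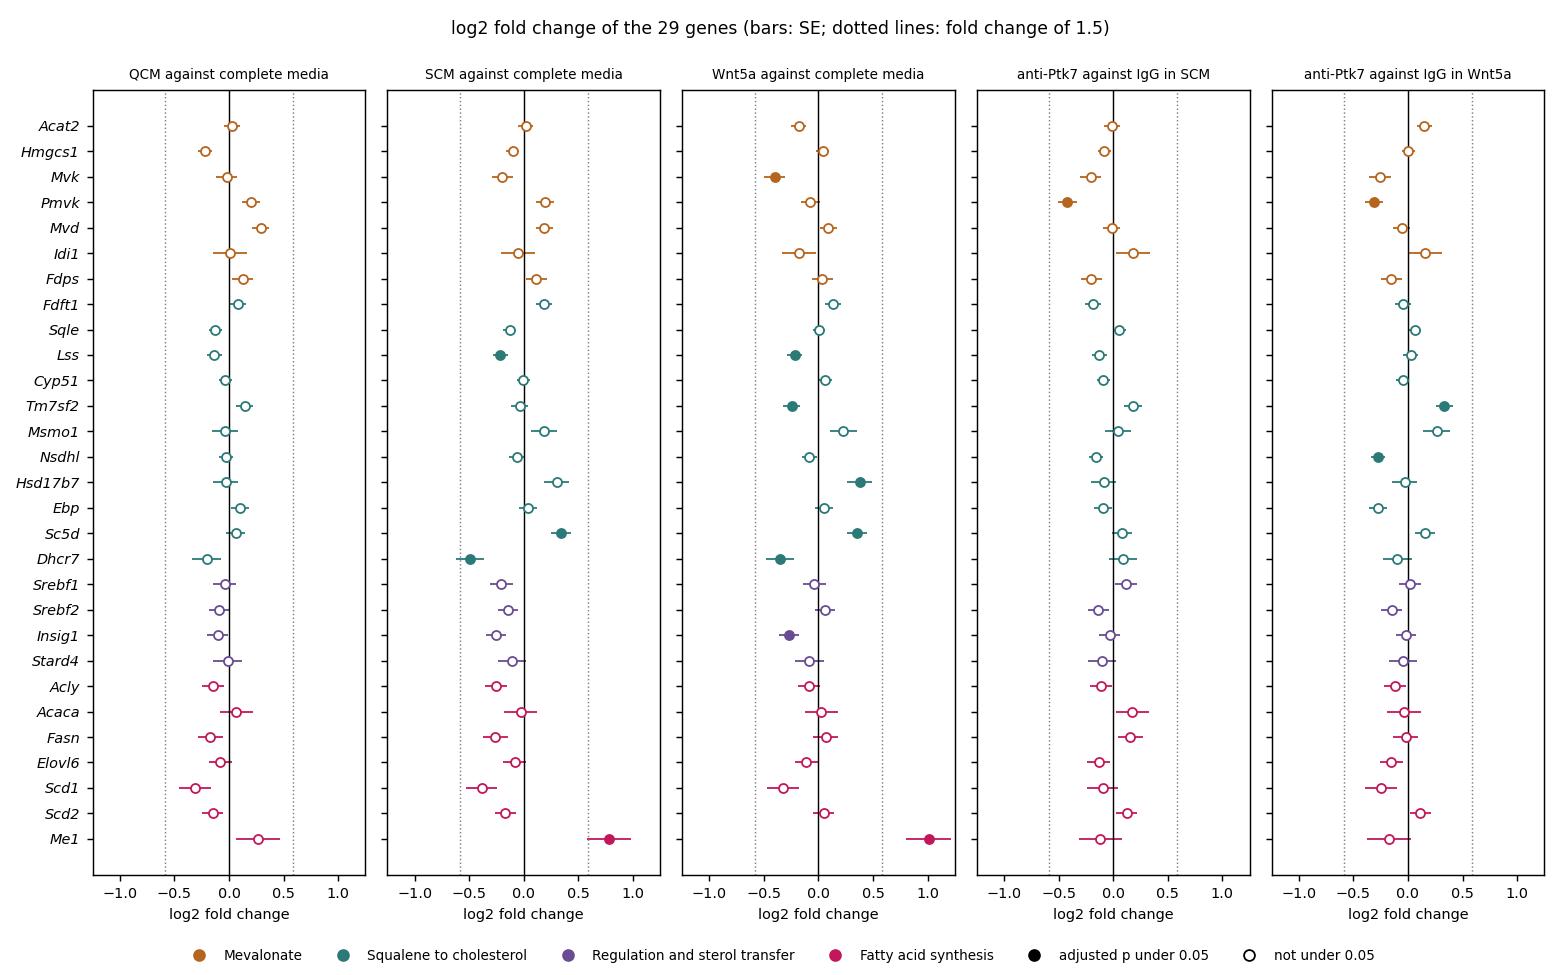
Each panel plots the log2 fold change of the 29 genes (x axis, bars are standard errors) for a comparison, with genes on the y axis in pathway order and coloured by branch. Filled points passed an adjusted p of 0.05 and dotted lines mark a fold change of 1.5. Me1, at 0.78 in SCM and 1.01 in Wnt5a, is the only gene beyond the dotted lines.

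The mevalonate branch had a mean log2 CPM of 6.45 ± 0.046 (SD, n = 6) in complete media and 6.36 ± 0.054 in Wnt5a + IgG. It lay at 6.51 ± 0.085 in QCM + IgG and 6.48 ± 0.087 in SCM + IgG. The lowest group was Wnt5a + anti-Ptk7, at 6.29 ± 0.037, and SCM + anti-Ptk7 lay at 6.37 ± 0.047. The highest library of Wnt5a + anti-Ptk7 (6.34) lay below the lowest of complete media (6.39), while the other 4 groups each overlapped complete media.

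**Figure D2:**
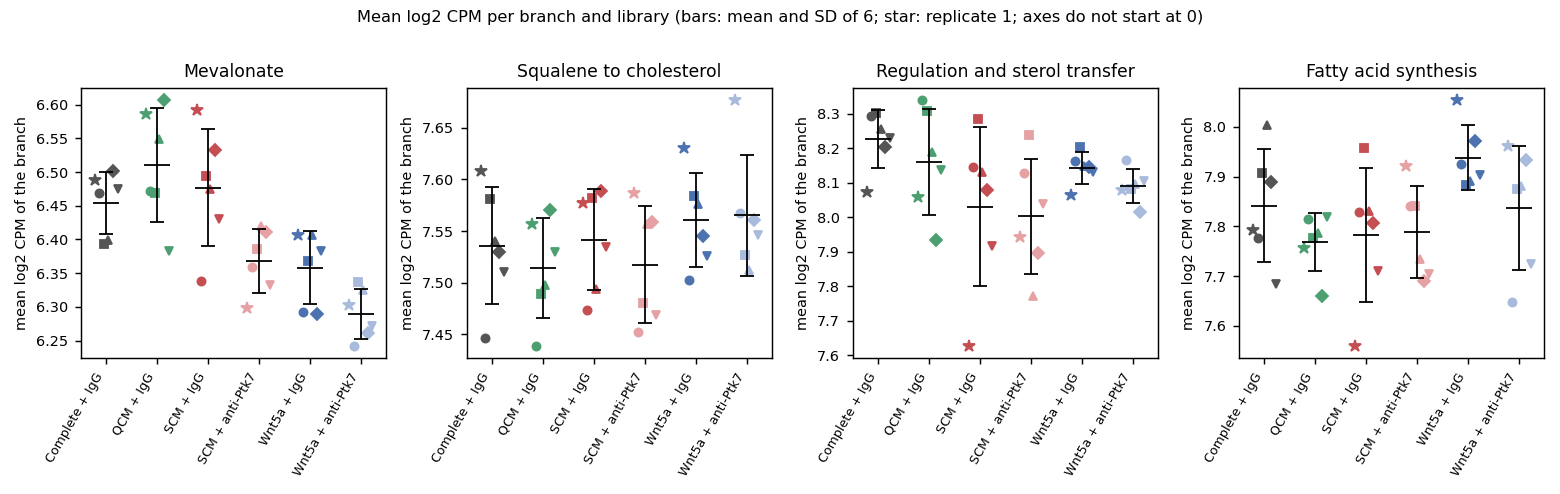
Mean log2 CPM of the genes of each branch (y axis) in each of the 36 libraries, by condition (x axis), with a marker for each replicate number (star for replicate 1) and bars for the mean and SD of 6. The mevalonate branch lay at 6.45 in complete media and 6.29 in Wnt5a + anti-Ptk7, while the branch from squalene to cholesterol stayed between 7.51 and 7.57 in all 6 groups.

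Hmgcs1, which condenses acetoacetyl-CoA into HMG-CoA, had 538 CPM in its lowest library of complete media, a median of 602 and 668 in its highest. In QCM + IgG it had 480, 509 and 584 CPM, and in Wnt5a + IgG 602, 626 and 644 CPM. The QCM libraries overlapped those of complete media in part, and the log2 fold change of -0.22 (SE 0.06) had an adjusted p of 0.0964. Hmgcs1 passed there with DESeq2 (0.0161), with the replicate block (0.0487) and without the 6 libraries of replicate 1 (0.0482). It also passed without QCM + IgG replicate 6 (0.0241) or Complete media + IgG replicate 1 (0.0248). Hmgcs1 shares exon sequence with Gm48342 on the opposite strand, which held 55735 counts beside its 283049. In SCM its log2 fold change was -0.10 (SE 0.06, adjusted p = 0.314), and in Wnt5a 0.04 (SE 0.06, adjusted p = 0.718).

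Mvk, the mevalonate kinase, had 89.2, 94.0 and 109 CPM in complete media (lowest, median and highest library) and 60.9, 73.9 and 84.5 CPM in Wnt5a + IgG. Every Wnt5a library lay below every library of complete media. Mvk fell by 0.40 on the log2 scale in Wnt5a (SE 0.10, adjusted p = 0.0027), and it stayed under an adjusted p of 0.05 without any single library, at 0.015 or less. In SCM + IgG it had 69.0, 79.0 and 104 CPM, which overlapped complete media, and the log2 fold change was -0.20 (SE 0.10, adjusted p = 0.208).

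Pmvk, which adds the next phosphate to mevalonate, did not pass against complete media in QCM, SCM or Wnt5a in edgeR's model of all 36 libraries. It had 76.9, 85.6 and 109 CPM in complete media, 85.1, 97.7 and 117 CPM in QCM + IgG and 89.4, 97.1 and 121 CPM in SCM + IgG. These 3 groups overlapped, and Pmvk passed in SCM without Complete media + IgG replicate 1 (0.0354). The remaining genes of the branch, Acat2 (acetoacetyl-CoA thiolase), Mvd (mevalonate pyrophosphate decarboxylase), Idi1 and Fdps (farnesyl pyrophosphate synthase), had log2 fold changes between -0.18 and 0.29 in the 3 media. The largest was that of Mvd in QCM, at 0.29 (adjusted p = 0.0783). Mvd passed there with DESeq2 (0.0319), with the replicate block (0.0117) and without QCM + IgG replicate 6 (0.0173). In SCM, Mvd passed with the replicate block (0.0456). Acat2 shares sequence with Acat3 and with Tcp1, and Fdps with 7 other loci, 6 of them in the count tables. Acat2 in Wnt5a, at -0.18 (adjusted p = 0.0596), passed with DESeq2 (0.0373), with upper-quartile scaling (0.0363) and with library size alone (0.0401). It also passed with the replicate block (0.024) and in 10 of the 36 fits that left out a library.

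In the branch from squalene to cholesterol, Sqle, the squalene epoxidase, had 497, 505 and 532 CPM in complete media and 440, 470 and 482 CPM in QCM + IgG. The groups did not overlap, yet the log2 fold change was -0.13 (SE 0.06) with an adjusted p of 0.394. Sqle had 397, 464 and 544 CPM in SCM + IgG and 447, 513 and 552 CPM in Wnt5a + IgG, both overlapping complete media. In SCM its log2 fold change was -0.13 (SE 0.06, adjusted p = 0.172), and it passed with voom and limma on quantile-normalized values (0.0264), with library size alone (0.0453) and without SCM + IgG replicate 5 (0.0285). Lss, which closes squalene epoxide into lanosterol, had 280.2, 296 and 312 CPM in complete media. It had 238 to 293 CPM in SCM + IgG (median 253) and 229 to 283 CPM in Wnt5a + IgG (median 257). Lss was lower by a log2 of -0.21 in SCM (SE 0.07, adjusted p = 0.037) and -0.22 in Wnt5a (SE 0.07, adjusted p = 0.019), with overlapping groups.

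Lss no longer passed in SCM in 14 of the 36 fits that left out a library, with adjusted p between 0.0501 and 0.0841. These left out Complete media + IgG replicates 1, 3 and 5, QCM + IgG replicate 4, SCM + IgG replicates 1, 2, 4 and 6, SCM + anti-Ptk7 replicates 2, 3 and 6, Wnt5a + IgG replicate 3, or Wnt5a + anti-Ptk7 replicates 4 and 6. In Wnt5a it was lost without Complete media + IgG replicate 1 (adjusted p = 0.0734) or 5 (0.0632) and without Wnt5a + IgG replicate 2 (0.0524) or 5 (0.0532). Without the filter on low counts the adjusted p in SCM was 0.0852. Lss shares exons with 4930483K19Rik, an antisense locus with 6379 counts beside its 127016.

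Tm7sf2, a sterol reductase acting after the lanosterol demethylase, had 59.7, 70.5 and 80.5 CPM in complete media. In Wnt5a + IgG it had 52.7, 59.0 and 69.1 CPM. The groups overlapped, and the log2 fold change was -0.25 (SE 0.08, adjusted p = 0.0224), which was lost without Complete media + IgG replicate 1 (0.0942) or Wnt5a + IgG replicate 2 (0.0627), and when only the groups compared were fitted (0.052). Tm7sf2 shares 532 exon bases with Vps51 on the same strand, which held 37079 counts beside its 34951.

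Hsd17b7, a ketoreductase of the sterol demethylation complex, had 69.8, 88.4 and 99.8 CPM in complete media, 91.3, 107 and 117 CPM in SCM + IgG and 96.3, 110 and 140.3 CPM in Wnt5a + IgG. Most Wnt5a libraries lay above complete media, with an overlap at the edge. Hsd17b7 rose by a log2 of 0.38 in Wnt5a (SE 0.12, adjusted p = 0.0162), which no longer passed without Complete media + IgG replicate 2 (0.0637) or Wnt5a + IgG replicate 1 (0.0764). In SCM the log2 fold change was 0.30 (SE 0.12, adjusted p = 0.0852). Hsd17b7 passed there when only the groups compared were fitted (0.0417), with the replicate block (0.00244) and without the 6 libraries of replicate 1 (0.0197). Nsdhl, the dehydrogenase of the same complex, differed by a log2 of -0.07 in SCM and -0.08 in Wnt5a, neither passing.

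Sc5d and Dhcr7, which catalyse the last steps before cholesterol, differed from complete media in opposite directions. Sc5d, the sterol desaturase that makes the substrate of Dhcr7, had 131, 137 and 152 CPM in complete media, 143, 174 and 208 CPM in SCM + IgG and 160.5, 179 and 191 CPM in Wnt5a + IgG. Every Wnt5a library lay above every library of complete media, and SCM overlapped it. Sc5d rose by a log2 of 0.34 in SCM (SE 0.09, adjusted p = 0.0104) and 0.35 in Wnt5a (SE 0.09, adjusted p = 0.00454). Without SCM + IgG replicate 1 the adjusted p in SCM was 0.0593.

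Dhcr7, the reductase that yields cholesterol, had 183, 218 and 231 CPM in complete media, 101, 149 and 188 CPM in SCM + IgG and 120.3, 169 and 216 CPM in Wnt5a + IgG. The SCM libraries lay mostly below complete media, with an overlap at the edge, and the Wnt5a libraries overlapped more. In SCM the log2 fold change of Dhcr7 was -0.50 (SE 0.13, adjusted p = 0.00937), and this held without any single library, at an adjusted p of 0.0304 or less. In Wnt5a it fell by 0.36 on the log2 scale (SE 0.13, adjusted p = 0.0442). It no longer passed in 13 of the 36 fits that left out a library, at adjusted p up to 0.136, namely without Complete media + IgG replicates 3 to 6, QCM + IgG replicates 4 and 6, SCM + IgG replicate 4, SCM + anti-Ptk7 replicates 2 and 6, Wnt5a + IgG replicates 1 and 5, or Wnt5a + anti-Ptk7 replicates 4 and 6. Without the filter on low counts the adjusted p was 0.0573.

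Within a library, the log2 ratio of Sc5d to Dhcr7, chosen after the values were seen, ran from -0.78 to -0.26 in complete media with a median of -0.66. In QCM + IgG it ran from -0.77 to 0.24 (median -0.35), in SCM + IgG from -0.11 to 1.04 (median 0.12) and in Wnt5a + IgG from -0.35 to 0.59 (median 0.07). With the antibody it ran from -0.06 to 0.57 in SCM (median 0.25) and from 0.02 to 1.16 in Wnt5a (median 0.17). All libraries of SCM + IgG and of both antibody groups lay above all libraries of complete media. The other genes of the branch, Fdft1 (squalene synthase), Cyp51, Msmo1 and Ebp (a sterol isomerase), did not pass in SCM or Wnt5a, with log2 fold changes between -0.01 and 0.23, except that Fdft1 passed in SCM without SCM + IgG replicate 2 (0.045). Fdft1 shares exons with Ctsb on the opposite strand and sequence with Gm6781.

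Among the regulators, Srebf2, the SREBP that mainly drives cholesterol genes, had 371, 391 and 433 CPM in complete media. It had 303, 354 and 431 CPM in SCM + IgG and 374, 401 and 484 CPM in Wnt5a + IgG. The groups overlapped, with log2 fold changes of -0.15 (SE 0.09, adjusted p = 0.358) in SCM and 0.06 (SE 0.09, adjusted p = 0.696) in Wnt5a. Srebf1, whose product favours fatty acid genes, had 302, 351 and 403 CPM in complete media, 203, 328 and 345 CPM in SCM + IgG and 306, 340.1 and 378 CPM in Wnt5a + IgG. Its log2 fold changes were -0.20 (SE 0.11, adjusted p = 0.223) and -0.04 (SE 0.10, adjusted p = 0.837), and the low SCM value was that of replicate 1.

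Insig1 had 215, 231 and 265 CPM in complete media, 145, 199 and 233 CPM in SCM + IgG and 169, 200.02 and 206 CPM in Wnt5a + IgG. Every Wnt5a library lay below every library of complete media, and SCM overlapped it. Insig1 fell by 0.27 on the log2 scale in Wnt5a (SE 0.09, adjusted p = 0.0329), and the log2 fold change in SCM was -0.25 (SE 0.09, adjusted p = 0.0695). In SCM it passed with DESeq2 (0.042) and with the replicate block (0.00537). It also passed there without QCM + IgG replicate 5 (0.0485) or SCM + IgG replicate 2 (0.0368) or 3 (0.0288). In Wnt5a it no longer passed without Complete media + IgG replicate 2 (0.0673) or 5 (0.0707) and without Wnt5a + IgG replicate 1 (0.0902) or 5 (0.0657). Stard4, a carrier that moves sterol between membranes, had log2 fold changes between -0.11 and -0.01 in the 3 media and did not pass.

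In fatty acid synthesis, Me1 stood out. Me1 (ENSMUSG00000032418, chr9:86581371-86695953 in GRCm38, minus strand) encodes the cytosolic malic enzyme, which supplies NADPH to fatty acid synthase. It had 16.8, 20.5 and 31.3 CPM in complete media (lowest, median and highest library), 20.3, 26.3 and 35.9 CPM in QCM + IgG, 33.1, 36.9 and 51.3 CPM in SCM + IgG and 36.2, 41.7 and 70.5 CPM in Wnt5a + IgG. All SCM and all Wnt5a libraries lay above all libraries of complete media, and QCM overlapped it.

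Me1 rose by a log2 of 0.78 in SCM (SE 0.20, adjusted p = 0.00933) and 1.01 in Wnt5a (SE 0.20, adjusted p = 0.000418), a fold change of 1.72 and 2.01. Both calls held without any single library, at adjusted p of 0.0422 or less in SCM and 0.0032 or less in Wnt5a. A test of whether the change itself exceeded 1.5-fold (glmTreat) gave adjusted p of 0.997 in SCM and 0.126 in Wnt5a. In QCM the log2 fold change was 0.27 (SE 0.20, adjusted p = 0.654).

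Stretches of at least 100 bases of the Me1 coding sequence matched Gm7049, Gm7329 and Gm48795 at 90% identity or more, and these loci held 2607, 4 and 3291 counts beside its 17034. These copies together had a median of 7.87 CPM in complete media, 12.5 in SCM + IgG and 14.3 in Wnt5a + IgG. Counted with its copies, Me1 had 22.5 to 43.9 CPM in complete media, 42.6 to 64.5 in SCM + IgG and 49.9 to 101 in Wnt5a + IgG, so that SCM overlapped complete media at the edge. On that count Me1 was higher by a log2 of 0.75 in SCM (two-sided exact permutation test, p = 0.00649) and 0.99 in Wnt5a (two-sided exact permutation test, p = 0.00216, the smallest that 924 splits allow).

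The other genes of fatty acid synthesis did not pass in edgeR's model of all 36 libraries. Fasn, the fatty acid synthase, had 483, 593 and 649 CPM in complete media, 363, 502 and 589 CPM in SCM + IgG and 523, 591 and 769 CPM in Wnt5a + IgG, with log2 fold changes of -0.26 (SE 0.12, adjusted p = 0.146) and 0.07 (SE 0.12, adjusted p = 0.734). Scd1 had 563, 736 and 887 CPM in complete media and 472, 625 and 697 CPM in QCM + IgG. It had 335, 587 and 804 CPM in SCM + IgG and 449, 582 and 688 CPM in Wnt5a + IgG. Scd1 shares sequence with Scd2, and its log2 fold changes were -0.32, -0.39 and -0.32 (SE 0.15 each) with adjusted p of 0.384, 0.0796 and 0.112, and each group overlapped complete media. With the replicate block, Scd1 passed in SCM (0.00107) and in Wnt5a (0.00669). It also passed in SCM without SCM + IgG replicate 3 (0.0159) or Complete media + IgG replicate 1 (0.0372). In Wnt5a it also passed when only the groups compared were fitted (0.0456).

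Scd2, by contrast, had 2692, 3057 and 3544 CPM in complete media, 1906, 2857 and 3396 CPM in SCM + IgG and 3017, 3247 and 3306 CPM in Wnt5a + IgG, which overlapped. Its log2 fold changes were -0.17 (SE 0.10, adjusted p = 0.295) in SCM and 0.05 (SE 0.10, adjusted p = 0.774) in Wnt5a. With voom and limma on quantile-normalized values, Scd2 passed in SCM at a log2 fold change of -0.38 (adjusted p = 0.0494). Acly, which makes cytosolic acetyl-CoA from citrate, Acaca and Elovl6, a fatty acid elongase, had log2 fold changes between -0.25 and 0.07 in the 3 media, none passing.

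**Figure D3:**
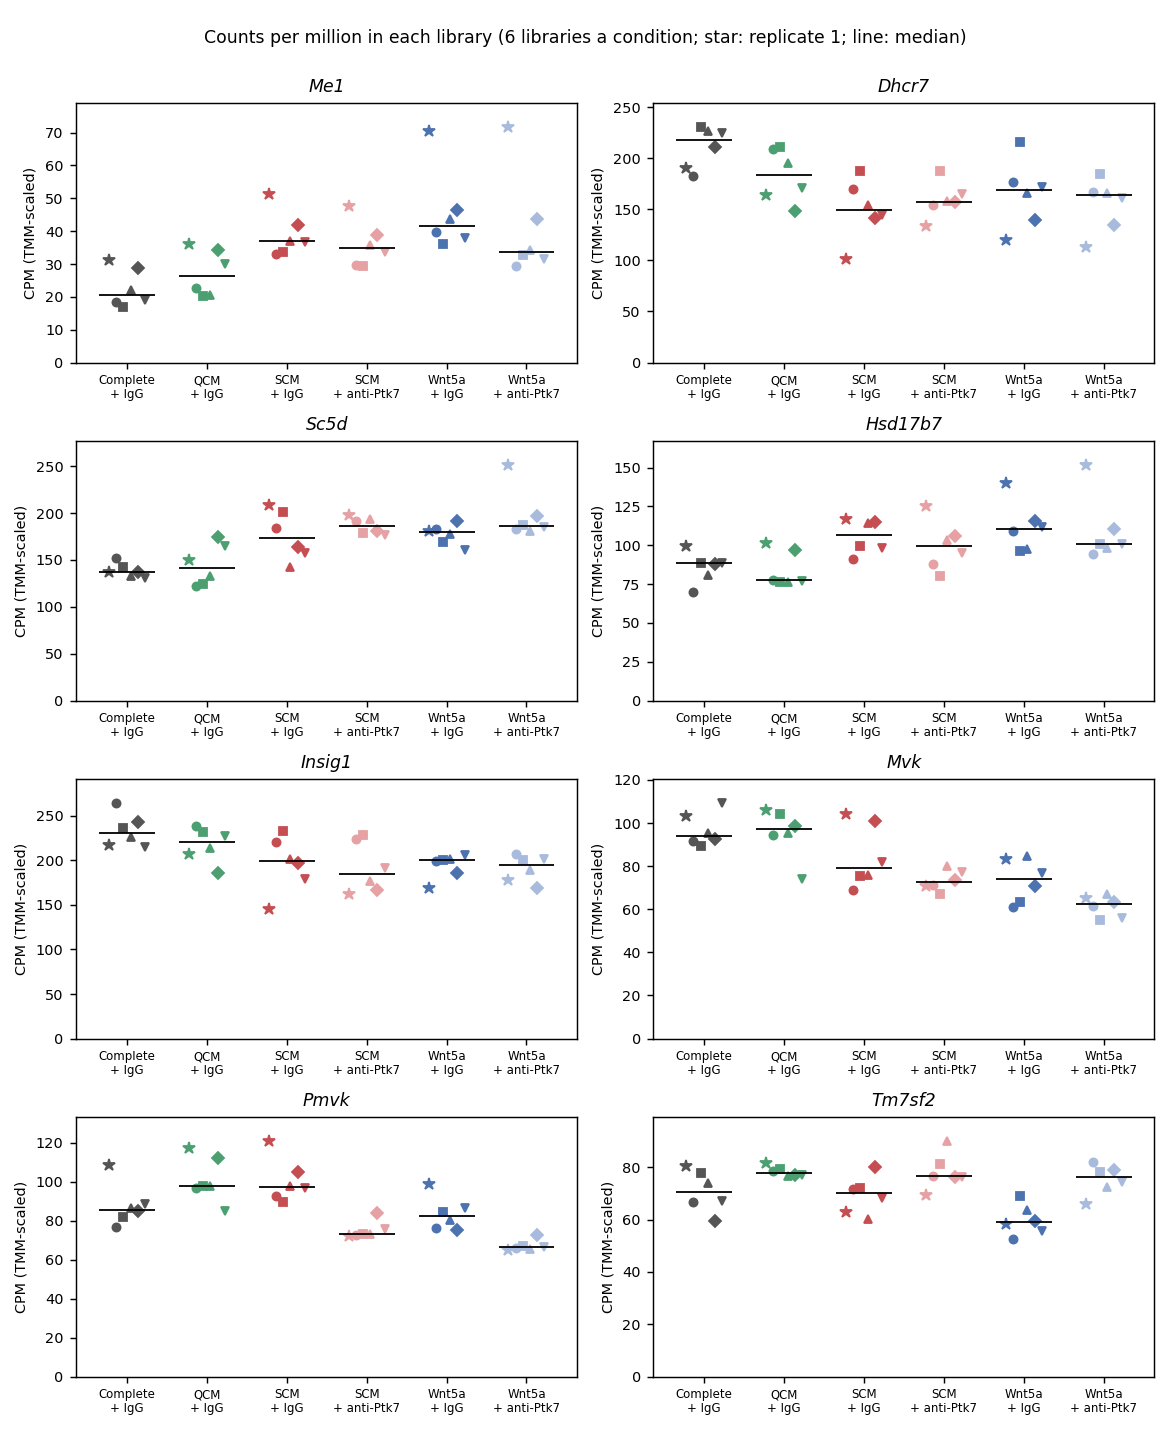
CPM (y axis, from 0) of 8 genes in each of the 36 libraries, by condition (x axis), with a marker for each replicate number (star for replicate 1) and a line at the median of 6. Me1 medians rise from 20.5 in complete media to 36.9 in SCM + IgG and 41.7 in Wnt5a + IgG, Dhcr7 medians go from 218 to 149 and 169, and Pmvk medians are 97.1 in SCM + IgG and 73.0 in SCM + anti-Ptk7.

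The study's closer control for senescent medium is quiescent medium. For SCM against QCM, 0 of 29 genes were called, against 0.903% of all genes, and 0 passed an adjusted p of 0.05 at any fold change, against 1.72%. At an unadjusted p under 0.05 there were 5 of the 29 (Me1, Sc5d, Hsd17b7, Dhcr7 and Tm7sf2, chosen after their values were seen), against 17% of all genes, and DESeq2 passed 1, Sc5d, against 4.52% of the genes to which it gave an adjusted p, while voom with limma passed 0. The log2 fold changes of SCM over QCM were 0.51 (SE 0.20, adjusted p = 0.17) for Me1, 0.28 (SE 0.09, adjusted p = 0.09) for Sc5d, 0.33 (SE 0.12, adjusted p = 0.125) for Hsd17b7 and -0.29 (SE 0.13, adjusted p = 0.237) for Dhcr7. With the replicate block, 4 of the 29 genes passed, against 7.95% of all genes. These were Me1 (adjusted p = 0.000419), Hsd17b7 (0.00189), Dhcr7 (0.0113) and Sc5d (0.036). Without the block, Sc5d passed when QCM + IgG replicate 5 (0.0391) or 6 (0.0432), SCM + IgG replicate 4 (0.0492) or Wnt5a + anti-Ptk7 replicate 1 (0.0421) was left out. Without the 6 libraries of replicate 1, which held the highest Me1 and Hsd17b7 of every condition, Me1 (log2 fold change 0.51, adjusted p = 0.0492) and Hsd17b7 (0.35, adjusted p = 0.0263) passed. That fit was added after these values were seen, so it is no separate support for a difference. The comparisons of SCM with QCM and of SCM with complete media share the SCM libraries.

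For Wnt5a against SCM, 0 of 29 genes were called, against 0.69% of all genes, and 0 passed at any fold change, against 2.81%, with 9 at an unadjusted p under 0.05, against 18.9%. DESeq2 passed Acat2 and Pmvk, 2 genes, against 8.62% of the genes to which it gave an adjusted p, voom with limma on quantile-normalized values 1 and on TMM-scaled values 0. Fasn was higher in Wnt5a than in SCM by a log2 of 0.33 (SE 0.12, adjusted p = 0.104) and Pmvk lower by -0.27 (SE 0.08, adjusted p = 0.0732), neither passing. Pmvk passed with DESeq2 (0.0348), with voom and limma on quantile-normalized values (0.039) and with library size alone (0.0456). With the replicate block, Pmvk (0.0251) and Acat2 (0.0407) passed, against 6.53% of all genes.

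Adding anti-Ptk7 asked which of these levels depended on Ptk7. By the 1.5-fold rule, 0 of 29 genes were called in SCM, against 1.23% of all genes, and 0 in Wnt5a, against 0.884%. The unadjusted p was under 0.05 for 6 genes in SCM, against 17.1% of all genes, and 7 in Wnt5a, against 15%, and DESeq2 and voom with limma also called 0. At an adjusted p under 0.05 whatever the fold change, 1 gene was lower in SCM, against 1.44% of all genes. In Wnt5a, 1 gene was higher, against 1.05%, and 2 were lower, against 1.52%.

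Pmvk (chr3:89454541-89469013, plus strand) passed in both media. It had 89.4, 97.1 and 121 CPM in SCM + IgG and 72.1, 73.0 and 83.8 CPM in SCM + anti-Ptk7, and 75.2, 82.2 and 98.6 CPM in Wnt5a + IgG and 65.0, 66.4 and 72.4 CPM in Wnt5a + anti-Ptk7. In each medium every library with the antibody lay below every library with IgG, and the spread was smaller with the antibody. With the antibody Pmvk had a log2 fold change of -0.42 in SCM (SE 0.08, adjusted p = 0.00444) and -0.31 in Wnt5a (SE 0.08, adjusted p = 0.0325).

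Pmvk passed in SCM without any single library, at an adjusted p of 0.0193 or less. In Wnt5a it no longer passed in 8 of the 36 fits that left out a library, without Wnt5a + IgG replicate 1 (0.089), 3 (0.0564) or 6 (0.0676) and without Wnt5a + anti-Ptk7 replicate 1 (0.0539), 2 (0.0599), 3 (0.0554), 4 (0.0594) or 6 (0.0553). Nor did it pass with no filter on low counts (0.0641) or when only the groups compared were fitted (0.0632). The difference between the antibody's effects in Wnt5a and in SCM was 0.11 on the log2 scale (SE 0.12, adjusted p = 0.999).

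Mvk, the kinase before Pmvk, had 66.9, 72.4 and 80.1 CPM in SCM + anti-Ptk7 and 55.0, 62.3 and 67.3 CPM in Wnt5a + anti-Ptk7, which overlapped their IgG groups. Its log2 fold changes with the antibody were -0.21 in SCM (SE 0.10, adjusted p = 0.27) and -0.26 in Wnt5a (SE 0.10, adjusted p = 0.173). Tm7sf2 had 65.9, 76.5 and 82.0 CPM in Wnt5a + anti-Ptk7 against 52.7, 59.0 and 69.1 CPM in Wnt5a + IgG. The groups overlapped at the edge, and Tm7sf2 rose by a log2 of 0.33 (SE 0.08, adjusted p = 0.0152), beside 0.18 in SCM (SE 0.08, adjusted p = 0.227). In Wnt5a, Tm7sf2 no longer passed with no filter (0.0527) or when only the groups compared were fitted (0.0708).

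Nsdhl had 118.1, 132 and 151 CPM in Wnt5a + IgG and 97.97, 111 and 117.6 CPM in Wnt5a + anti-Ptk7, which narrowly did not overlap. Nsdhl fell by 0.28 on the log2 scale (SE 0.07, adjusted p = 0.0176), which no longer passed without Wnt5a + IgG replicate 4 (0.0624) or Wnt5a + anti-Ptk7 replicate 5 (0.0521), and when only the groups compared were fitted (0.0897). In SCM the log2 fold change was -0.16 (SE 0.07, adjusted p = 0.202). Ebp had 136 to 156 CPM in Wnt5a + IgG and 119 to 129 CPM in Wnt5a + anti-Ptk7, with no overlap. Its log2 fold change of -0.28 did not pass (SE 0.08, adjusted p = 0.0538). Ebp passed with DESeq2 (0.0221), with the replicate block (0.0244) and when only the groups compared were fitted (0.0421). It also passed in 6 of the 36 fits that left out a library. Me1 with the antibody had 29.5, 34.8 and 47.8 CPM in SCM and 29.4, 33.5 and 71.8 CPM in Wnt5a, both overlapping the IgG groups, with log2 fold changes of -0.12 (SE 0.20, adjusted p = 0.816) and -0.17 (SE 0.20, adjusted p = 0.76).

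Sc5d and Dhcr7 likewise did not pass with the antibody, at log2 fold changes of 0.08 and 0.09 in SCM and 0.16 and -0.10 in Wnt5a. In a test of whether the antibody's effect differed between Wnt5a and SCM, 0 of 29 genes were called, 0% of all genes were, 0 of the 29 had an unadjusted p under 0.05, against 3.88% of all genes, and DESeq2 and voom with limma also called 0.

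Some of the genes, chosen after their values were seen, were highest or lowest in the same replicate number in every condition, while others such as Acly, Fasn and Nsdhl were not. Me1 was highest in replicate 1 in 6 of 6 conditions, 0.41 to 0.90 above the condition mean on the log2 CPM scale. Hsd17b7 was also highest there in 6 of 6 conditions and Msmo1 in 5 of 6. Scd1 was lowest in replicate 1 in 6 of 6 conditions, with deviations from the mean of -0.71 to -0.19. Dhcr7 was lowest there in 4 of 6 conditions, and it was highest in replicate 3 in 6 of 6. The crypts came from 6 mice, and the labels do not say which number is which mouse.

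After subtraction of each condition's mean, some of the genes varied together over the 36 libraries and others oppositely, which is described with no test because libraries of the same number shared such extremes. Of 406 gene pairs, 16 had a Pearson r over 0.7 and 3 had one under -0.7. Me1 varied with Hsd17b7 (r = 0.85, Spearman rho 0.76) and with Msmo1 (r = 0.84, rho 0.75). Insig1 varied with Scd1 (r = 0.84, rho 0.78), and Dhcr7 with Stard4 (r = 0.77, rho 0.79). In the opposite direction, r was -0.80 for Me1 and Dhcr7 (rho -0.76) and -0.81 for Msmo1 and Dhcr7 (rho -0.77).

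Without the 2 libraries farthest from the median, r was 0.79 for Hsd17b7 with Me1, 0.79 for Insig1 with Scd1 and -0.76 for Dhcr7 with Me1. Without the 6 libraries of replicate 1, the values were 0.61, 0.76 and -0.63. Some of these pairs crossed the pathway's branches, as Me1 belongs to fatty acid synthesis and Hsd17b7, Msmo1 and Dhcr7 to the sterol branch, and others lay within a branch, as Msmo1 with Dhcr7, Scd1 with Scd2 (r = 0.81) and Acly with Scd2 (r = 0.80).

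**Figure D4:**
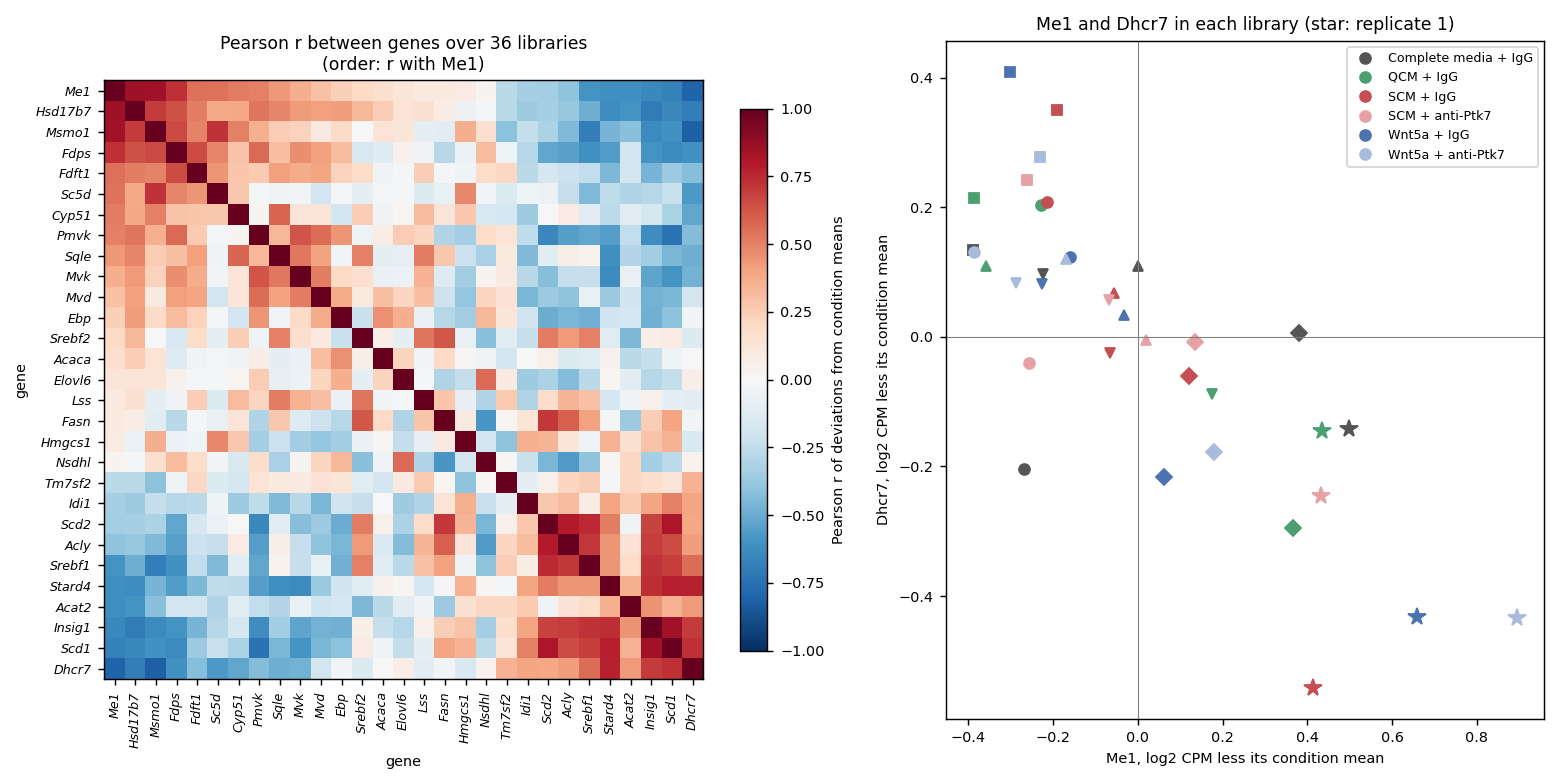
The left panel shows Pearson r between each pair of the 29 genes over 36 libraries, after subtraction of condition means, ordered by r with Me1 (red positive, blue negative). The right panel plots Me1 (x axis) against Dhcr7 (y axis) in log2 CPM less the condition mean, coloured by condition, with r = -0.80 and the stars of replicate 1 all at the high end of Me1.

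Neighbouring lipid pathways gave a frame for these levels. Of 20 other lipid synthesis genes, 1 was higher and 3 were lower in SCM at an adjusted p under 0.05, and 3 were higher and 5 lower in Wnt5a, beside 7.43% and 4.45% of all genes in SCM and 12.5% and 9.4% in Wnt5a. Gpam, which starts glycerolipid synthesis, was the only one called by the 1.5-fold rule, at a log2 of -0.66 in Wnt5a (SE 0.18, adjusted p = 0.0085). Acss2, which makes acetyl-CoA from acetate and was chosen after its values were seen, differed by a log2 of -0.44 in SCM (SE 0.10, adjusted p = 0.00251) and -0.50 in Wnt5a (SE 0.10, adjusted p = 0.000339). With the antibody Acss2 was higher by a log2 of 0.37 in SCM (SE 0.10, adjusted p = 0.0343) and 0.39 in Wnt5a (SE 0.10, adjusted p = 0.0225), values that no longer passed in 6 and 2 of the 36 fits that left out a library. In SCM these left out SCM + IgG replicates 1, 5 and 6 and SCM + anti-Ptk7 replicates 2, 3 and 4 (adjusted p up to 0.104), and in Wnt5a they left out Wnt5a + IgG replicate 1 and Wnt5a + anti-Ptk7 replicate 4 (up to 0.0685).

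Of 10 genes of sterol efflux and storage, 1 was lower in SCM, and 1 was higher and 2 were lower in Wnt5a, beside the same shares of all genes. Soat1, which esterifies cholesterol for storage, had 319, 364 and 435 CPM in complete media, 191, 251 and 272 CPM in SCM + IgG and 186, 251 and 282 CPM in Wnt5a + IgG. Its log2 fold change was -0.64 in SCM (SE 0.10, adjusted p = 1.82e-05) and -0.63 in Wnt5a (SE 0.10, adjusted p = 1.23e-05), with no overlap with complete media. With anti-Ptk7 it had 302, 331 and 357 CPM in SCM and 284, 360 and 407 CPM in Wnt5a, higher by a log2 of 0.44 (SE 0.10, adjusted p = 0.00774) and 0.53 (SE 0.10, adjusted p = 0.00181). The comparisons with complete media and with the antibody share the IgG libraries. All 4 passed without any single library. Abca1, the cholesterol exporter, was higher in Wnt5a by a log2 of 1.21 (SE 0.39, adjusted p = 0.0224), a call lost without Complete media + IgG replicate 4 or 6 or Wnt5a + IgG replicate 5 (adjusted p up to 0.061), and with voom and limma on quantile-normalized values (0.0642).

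Among genes of fatty acid oxidation and its control, Pdk4, a kinase that restrains pyruvate oxidation, was called lower in Wnt5a, but at no more than 2.57 CPM in complete media, and its call was lost in 5 of the 36 fits that left out a library (Complete media + IgG replicate 5 and Wnt5a + IgG replicates 2, 4, 5 and 6, adjusted p up to 0.0657).

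Cell type markers moved with the same comparisons. Of 6 enterocyte markers, 4 were called higher in SCM, against 4.96% of all genes, 3 in QCM, against 0.355%, and 3 in Wnt5a, against 8.29%. In QCM, Apoa4 was lost without QCM + IgG replicate 2 or 3 or Complete media + IgG replicate 1, 4, 5 or 6 (adjusted p up to 0.109), which leaves 2. The summed enterocyte level had medians of 1188 CPM in complete media, 1545 in QCM + IgG, 1835 in SCM + IgG, 2110 in SCM + anti-Ptk7, 1560 in Wnt5a + IgG and 1471 in Wnt5a + anti-Ptk7, within a range over all libraries of 937 to 2257 CPM. With anti-Ptk7, 1 enterocyte marker, Alpi, was called lower in SCM, against 0.645% of all genes, and in Wnt5a, against 0.432%. The SCM call was lost in 8 of the 36 fits that left out a library, without SCM + IgG replicates 1, 3, 4 and 5 or SCM + anti-Ptk7 replicates 2, 3, 4 and 6 (adjusted p up to 0.106). Of the 6 epithelial markers, 3 were called higher in SCM and 4 in Wnt5a. Of the 4 stem cell markers, Smoc2 was lower in SCM (log2 -0.77, SE 0.17, adjusted p = 0.00209) and in Wnt5a (-0.67, SE 0.17, adjusted p = 0.00371), while Ascl2 was higher, at 0.51 (adjusted p = 0.00985) and 0.41 (adjusted p = 0.0234). Of 6 proliferation markers, 2 were lower in SCM and 1 in Wnt5a, beside 4.45% and 9.4% of all genes, none past 1.5-fold. The part of these shifts in the levels of Me1, Sc5d and Dhcr7 was not tested.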

How the data were processed

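Organoid RNA was amplified with Smart-Seq V4 from 2 ng, made into libraries with Nextera XT and sequenced. The authors aligned reads to mouse mm10 with GSNAP (per the submitters' processing notes) through HTSeqGenie, and deposited whole-number counts per gene without normalization; the methods state that reads in coding sequences were counted, and the annotation and strand setting are not given in the sources used here. Samples were grouped by their titles.

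Counts were filtered with filterByExpr, TMM-scaled and fitted in edgeR 4.0.16 (R 4.3.3) with glmQLFit and glmQLFTest in a single model of 6 condition means, with Benjamini-Hochberg adjustment over the 15497 genes tested. Log2 CPM used a prior count of 2. Calls required a fold change above 1.5 with an adjusted p below 0.05. The p-values measure the spread between libraries. All 90 pairs of replicates differed beyond sampling noise (chi-square per gene 7.28 or more). The script was tested on simulated data. Alternatives were DESeq2 1.42.0, voom with limma 3.58.1 on quantile-normalized (the study's method) and TMM-scaled values, upper-quartile scaling, library size alone, other filters, a replicate block, the compared groups alone, other fold limits, glmTreat and each library left out. Added after seeing the data were a fit without the 6 libraries numbered 1 and Me1 counted with its copies.

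Names and positions came from GENCODE vM21 (GRCm38, the build of the counts), copies from blastn 2.17.0 on coding sequences (90% identity over at least 100 bases), and promoters from RefSeq. Genes given with the lowest, median and highest CPM were Srebf1, Srebf2, Insig1, Hmgcs1, Sqle, Fasn, Scd1, Scd2, every gene called between 2 groups, and genes passing the adjusted p alone; genes of other lists were named where called, except for a result that is not reported here. The members and lists were chosen with earlier results of these data known.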

Additional observations from a re-analysis of the deposited data

Results flagged for a closer look

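Of 102 groups of 6 libraries examined (17 genes in 6 conditions), 6 held a library farther from the rest than Dixon's 95% critical value allows for the gap over the range. Chance picks out about 1 in 20 groups. Pmvk was highest in replicate 5 in both antibody groups, at 83.8 CPM in SCM + anti-Ptk7 against 72.1 to 75.4 in the others, and at 72.4 CPM in Wnt5a + anti-Ptk7 against 65.0 to 67.0. In Wnt5a + anti-Ptk7, replicate 1 was far above the others for Hsd17b7, at 152 CPM against 94.1 to 111, and for Sc5d, at 252 CPM against 180.4 to 197. Srebf1 was lowest in SCM + IgG replicate 1, at 203 CPM against 285 to 345, and Mvk in QCM + IgG replicate 6, at 74.2 CPM against 94.7 to 106.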

How the results depend on the processing

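The count of called genes in each comparison of 2 groups was the same under DESeq2, voom with limma, the other scalings and filters, the replicate block, the compared groups alone and the fit without the libraries numbered 1. With no fold limit it was 4 in SCM, 8 in Wnt5a, 1 with anti-Ptk7 in SCM and 3 in Wnt5a; with a limit of 2-fold it was 0 in SCM, and with glmTreat 0 in SCM and 0 in Wnt5a. Leaving out each library gave 1 in SCM and Wnt5a against complete media, 0 in the other comparisons, and 16 to 20 genes for any difference among the conditions.

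Over the 29 genes the middle log2 fold change moved by more than its spread between libraries to -0.078 (quantile voom) and -0.042 (library size alone) in Wnt5a, to -0.022 (quantile voom) for anti-Ptk7 in SCM, and to 0.042 without the libraries numbered 1 for the difference of antibody effects. Leaving out each library gave -0.053 to -0.027 in QCM, -0.092 to -0.048 in SCM, -0.037 to 0.033 in Wnt5a, -0.073 to -0.013 for SCM against QCM, -0.0092 to 0.051 for Wnt5a against SCM, -0.099 to -0.022 and -0.056 to -0.024 for anti-Ptk7 in SCM and Wnt5a, and -0.035 to 0.033 for their difference. The cause was not tested.

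Libraries of the same number had a mean correlation of deviations from condition means of 0.092, against -0.018 for other numbers. Of 90 same-number pairs, 34 were over 0.1, and 16 of 36 libraries correlated best with their own number. Whether a number marks the same mouse is not stated and was not tested. The main tests do not pair libraries by number, so their spread includes any difference between numbers. With the replicate block, genes passing an adjusted p of 0.05 numbered 2 in QCM, 8 in SCM, 10 in Wnt5a, 4 for SCM against QCM (Me1 at 0.00042, Hsd17b7 at 0.0019, Dhcr7 at 0.011 and Sc5d at 0.036), 2 for Wnt5a against SCM, 1 with anti-Ptk7 in SCM and 4 in Wnt5a. Over all genes tested, the shares under the block were 2.78%, 16.4%, 25.3%, 7.95%, 6.53%, 6.78% and 4.94%. Scd1 passed under it in SCM (0.0011) and Wnt5a (0.0067).

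Of 10904 refits of the 29 genes' log2 fold changes, 10758 kept their side of an adjusted p of 0.05, 78 no longer passed and 68 newly passed. Most of these values had not passed in the main fit, so their refits could not lose a pass. The losses include glmTreat, which tests against a 1.5-fold change. The sign changed in 386, all of values that passed in neither fit. Without the libraries numbered 1, the genes that no longer passed were Lss in SCM (adjusted p = 0.099), Tm7sf2 in Wnt5a (0.0902), and Pmvk (0.0591) and Nsdhl (0.0772) for anti-Ptk7 in Wnt5a, and those that newly passed were Hmgcs1 in QCM (0.0482), Hsd17b7 in SCM (0.0197), and Hsd17b7 (0.0263) and Me1 (0.0492) for SCM against QCM, all by edgeR. Low counts limit Idi1 and Acaca.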
